A study of Mustela putorius furo and Mus musculus with 4 samples.

Results

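The genes described here are 10 genes whose products mark maturing and mature astrocytes: *Slc1a2*, *Slc1a3*, *Glul*, *Aldoc*, *Aqp4*, *Gfap*, *S100b*, *Sparcl1*, *Clu* and *Apoe*. They were chosen by symbol, and all 10 were among the 17170 genes of the mouse table. The ferret table, of 22008 genes, held 9 of them under the upper case symbols, and *GFAP* was not analysed there. Their levels were read in radial glial (RG) cells and in the other cell classes of the developing cortex, none of which was defined with any of the 10 genes.

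The mouse cells came from the cortex of embryos at E18. In 1 library the cells carried *hGFAP-Cre* with *Smo* F/F, written Smo cKO below, and the other held control littermates, which are *Smo* F/F in the study's methods and wild type of the CD1 strain in the sample labels. *Smo* encodes the transducer of Sonic hedgehog signals, and the human *GFAP* promoter drives Cre in cortical RG cells. In both groups CellTrace Yellow, a dye that enters cells lining the ventricle, was injected 1 day before, and labeled cells were sorted, so cell numbers follow the sort. The ferret cells came from the cortex of 1 embryo at E39 and fall into 2 barcode sets that are not separate animals. The mouse table names no sample, and a cell was given its genotype by its barcode suffix: the suffix with 10524 cells was taken as control and that with 7596 as Smo cKO. This rests on the cell numbers given in the study's methods. If this were wrong, every direction between genotypes below would be reversed.

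RG cells are the stem cells of the cortex. They make pyramidal neurons (PyNs) through intermediate progenitor cells (IPCs) and later turn to making glia, and the switch is accompanied by the appearance of genes for glutamate uptake, water and lipid transport that astrocytes use throughout life. Some of these genes, above all the glutamate transporter gene *Slc1a3*, are already active in RG cells, while others, such as *S100b*, are known as later genes.

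Transcripts were counted by unique molecular identifiers (UMIs). After the filter on genes and mitochondrial transcripts per cell, the control library held 10498 cells and 51657121 UMIs and the Smo cKO library 7209 cells and 42057782 UMIs, and 28 barcode sequences occurred in both. A cell was put in the class with the most markers detected out of 8 marker lists, except that 3 glial progenitor markers sufficed where RG or glial progenitor markers led. RG cells with at least 2 of 8 cycling markers were kept apart as cycling RG. This gave 1732 control and 1357 Smo cKO RG cells, 1461 and 740 cycling RG cells, 367 and 102 glial progenitors, 1371 and 606 IPCs and 1027 and 1110 PyNs, while 41.7% and 41.0% of cells stayed in no class. Such classes are ranges along a score, and 187 control and 131 Smo cKO RG cells lay at the limit of theirs. So did 842 of 1371 control and 405 of 606 Smo cKO IPCs, and 577 of 1027 and 595 of 1110 PyNs. Glial progenitors held a median of 3 markers of their own class and 7 of the next class in both libraries. In RG cells all 10 RG markers (*Fabp7*, *Hes1*, *Hes5*, *Vim*, *Sox2*, *Pax6*, *Mfge8*, *Tnc*, *Ednrb* and *Ddah1*) were detected, at a summed level of 22016 counts per 1000000 UMIs of the class (CPM) in control and 25842 CPM in Smo cKO, while the 8 microglial markers summed to 3.10 and 10.9 CPM and the 10 vascular markers to 74.4 and 70.0 CPM. Markers of related lineages were higher in these cells. The 8 IPC markers summed to 668 and 736 CPM, the 8 PyN markers to 242 and 185 CPM, and the 6 glial progenitor markers to 113 and 94.8 CPM. In RG cells *Smo* itself went from 118 UMIs in control to 3 in Smo cKO, while the hedgehog target *Gli1* had 42 UMIs and 0, where 3 UMIs equal 0.310 CPM. The median RG cell held 4548.5 UMIs in control against 6804 in Smo cKO, so shares of cells are also given with every cell thinned to 2900 UMIs. Each genotype was a single library, so no replicate spread exists and no test was made. All intervals are 95% and exact, and cover counting error only, and a difference between genotypes cannot be told apart from one between embryos or preparations. A ratio is called past the limit when it is at least 1.5-fold on the scale of CPM with 1 CPM added.

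In mouse, 7 of the 10 genes (*Slc1a2*, *Slc1a3*, *Glul*, *Aldoc*, *Aqp4*, *Gfap* and *Clu*) had their highest CPM in RG cells in both libraries, among the 7 classes with at least 50 cells in each library. Of all 13111 genes with at least 50 UMIs, 8.34% did. The other 3 genes each had their peak elsewhere in at least 1 library: *Apoe* in microglia, *S100b* in glial progenitors, and *Sparcl1* in RG cells in control but in glial progenitors in Smo cKO, where the 2 classes (20.0 and 20.4 CPM) did not differ beyond counting error.

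**Figure D1:**
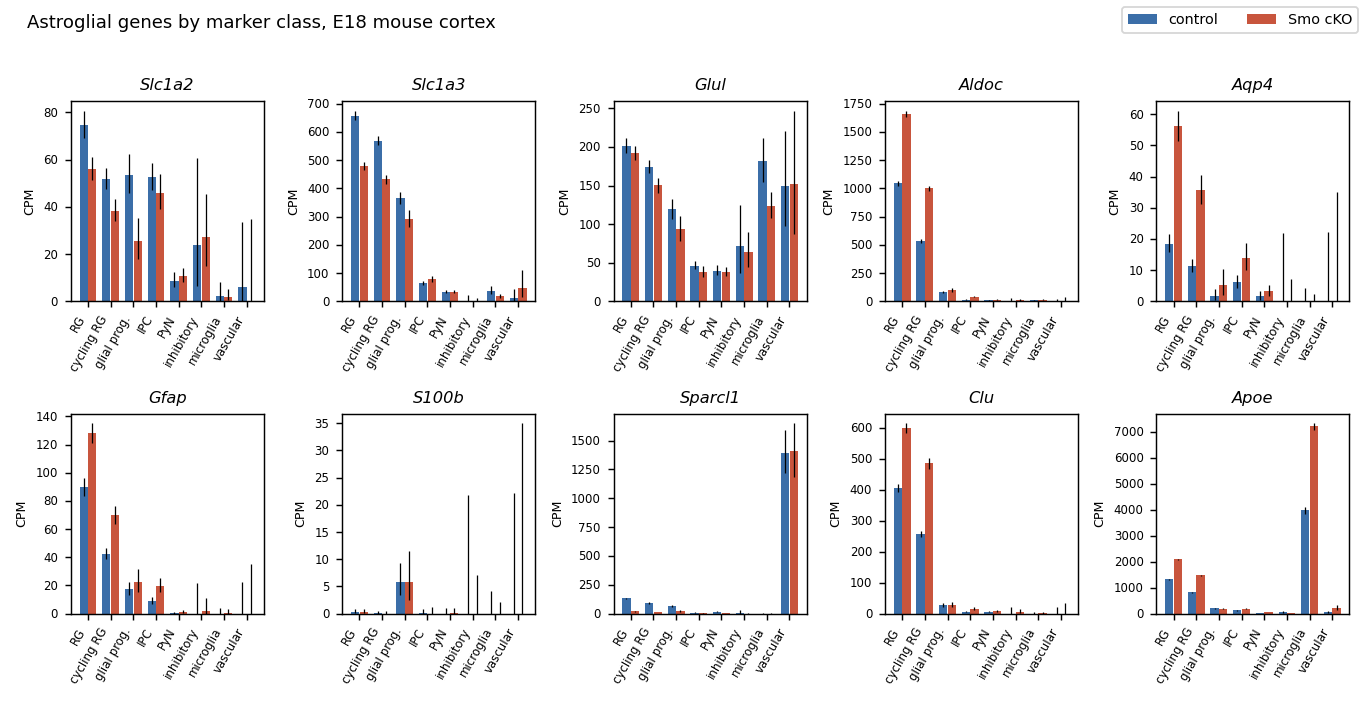
CPM (y axis, a scale of its own for each gene) of the 10 genes in each marker class of the E18 mouse cortex (x axis), control in blue and Smo cKO in red. Bars are CPM of summed UMIs and error bars exact Poisson 95% intervals. *Sparcl1* in RG cells stood at 132 CPM in control and 20.0 CPM in Smo cKO, while in vascular cells it was 1396 and 1405 CPM.

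The glutamate transporter genes come first among the functional groups. *Slc1a3* (chromosome 15 from 8634124 to 8710764, GRCm38) encodes GLAST, the glutamate transporter typical of RG cells and young astrocytes. It was at 657 CPM in control RG cells (640 to 674) and at 480 CPM in Smo cKO RG cells (466 to 494). Cycling RG cells followed (569 and 431 CPM), then glial progenitors (365 and 292 CPM) and, far below, IPCs (64.2 and 78.0 CPM), and these 4 steps did not overlap in their intervals in either library. In PyNs, which should hold little of it, 10.2% of control cells (median 3290 UMIs) and 12.3% of Smo cKO cells (median 4128 UMIs) had a UMI, against 84.5% and 83.9% of RG cells.

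*Slc1a2* (chromosome 2 from 102658659 to 102790784) encodes GLT-1, the main glutamate transporter of the adult astrocyte. Its level was 74.7 CPM in control RG cells (69.0 to 80.6) and 56.0 CPM in Smo cKO RG cells (51.4 to 60.9), and its spread over classes was flatter. In control, glial progenitors (53.6 CPM), IPCs (52.7 CPM) and cycling RG cells (51.8 CPM) did not differ beyond their intervals, and in Smo cKO IPCs (46.0 CPM) overlapped with both RG cells and cycling RG cells (38.4 CPM). PyNs were at 8.80 and 10.7 CPM.

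*Glul* (chromosome 1 from 153899944 to 153909723) encodes glutamine synthetase, which turns the glutamate taken up into glutamine. It reached well into the other classes. RG cells had 201 and 192 CPM, microglia 182 and 124 CPM, cycling RG cells 174 and 150 CPM, and PyNs still 39.9 and 38.1 CPM. In control the intervals of RG cells (192 to 211) and microglia (155 to 212) overlapped.

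*Aldoc* (chromosome 11 from 78322968 to 78327781) encodes aldolase C, the glycolytic enzyme form of astrocytes. It fell off steeply outside RG cells. The level was 1045 CPM in control RG cells (1023 to 1066) and 1660 CPM in Smo cKO RG cells (1634 to 1686), followed by 533 and 1000 CPM in cycling RG cells and 80.1 and 103 CPM in glial progenitors. IPCs stood at 15.4 and 40.7 CPM and PyNs at 8.80 and 14.9 CPM.

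*Aqp4* encodes aquaporin 4, the water channel of astrocyte endfeet. Few RG cells had it at all: a UMI was seen in 7.68% of them in control (interval 6.47 to 9.03%) and 27.0% in Smo cKO (24.6 to 29.4%). With cells at 2900 UMIs these shares were 5.38% (4.31 to 6.63%) and 14.5% (12.6 to 16.6%), against 0.508% and 0.992% of PyNs at this depth. The level was 18.5 CPM in control RG cells and 56.2 CPM in Smo cKO RG cells, ahead of cycling RG cells (11.3 and 35.6 CPM) and IPCs (6.18 and 14.0 CPM).

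*Gfap* (chromosome 11 from 102887336 to 102900912) encodes the intermediate filament protein that names the astrocyte's cytoskeleton. It was at 90.1 CPM in control RG cells (83.9 to 96.6) and at 128 CPM in Smo cKO RG cells (121 to 135), and cycling RG cells had 42.4 and 70.0 CPM. PyNs had 1 UMI in control and 7 in Smo cKO, so it was nearly absent from this class. Glial progenitors had 17.3 and 22.6 CPM and IPCs 8.96 and 19.6 CPM. *S100b* (chromosome 10 from 76253853 to 76261159), the gene of a calcium-binding protein of mature astrocytes, was nearly absent. In RG cells the control library held 2 UMIs and the Smo cKO library 3, and glial progenitors had 18 and 8, or 5.89 CPM (3.49 to 9.30) and 5.82 CPM (2.51 to 11.5).

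The last 3 genes encode secreted proteins. *Clu* (chromosome 14 from 65968483 to 65981547) encodes clusterin, an extracellular chaperone. It was at 404 CPM in control and 599 CPM in Smo cKO RG cells, and at 256 and 485 CPM in cycling RG cells, while no other class exceeded 28.4 CPM. *Apoe* (chromosome 7 from 19696109 to 19699188), the gene of the brain's main lipid carrier, was at 1318 CPM in control RG cells (1294 to 1342) and at 2089 CPM in Smo cKO RG cells (2060 to 2118). Microglia were the only class above RG cells, with 3971 and 7205 CPM. PyNs had 28.2 and 50.2 CPM.

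*Sparcl1* (chromosome 5 from 104079111 to 104113733) encodes hevin, which astrocytes release at synapses and which blood vessels also make. It was at 132 CPM in control RG cells (124 to 139) and at 20.0 CPM in Smo cKO RG cells (17.3 to 23.1). In the 27 control and 18 Smo cKO vascular cells it was at 1396 CPM (1222 to 1587) and 1405 CPM (1188 to 1651), 2 levels that did not differ beyond their intervals.

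Levels were next set side by side between genotypes. Of the 9 genes with at least 50 UMIs in RG cells over both libraries (all but *S100b*), 3 were at least 1.5-fold higher in Smo cKO, where 5.18% of all 10995 genes with that many UMIs were, and 1 was at least 1.5-fold lower, where 3.93% of all genes were. The higher genes were *Aqp4* (3.04-fold, 2.54 to 3.65), *Aldoc* (1.59-fold, 1.55 to 1.63) and *Apoe* (1.59-fold, 1.55 to 1.62). The lower gene was *Sparcl1*, with a ratio of Smo cKO over control of 0.152 (0.130 to 0.178). *Clu* (ratio 1.48, 1.42 to 1.55) and *Gfap* (ratio 1.42, 1.30 to 1.56) lay just inside the limit. *Gfap* passed it in RG cells without an *Ecrg4* UMI and in those without a vascular marker UMI (log2 0.73 and 0.62). The ratio of *Glul* was 0.954 (0.893 to 1.02), an interval that holds 1, and both glutamate transporter genes were lower in Smo cKO without passing the limit, *Slc1a2* at a ratio of 0.750 (0.668 to 0.842) and *Slc1a3* at 0.731 (0.703 to 0.760). The median log2 ratio over the 9 genes was 0.50, and over all genes tested -0.00070.

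**Figure D2:**
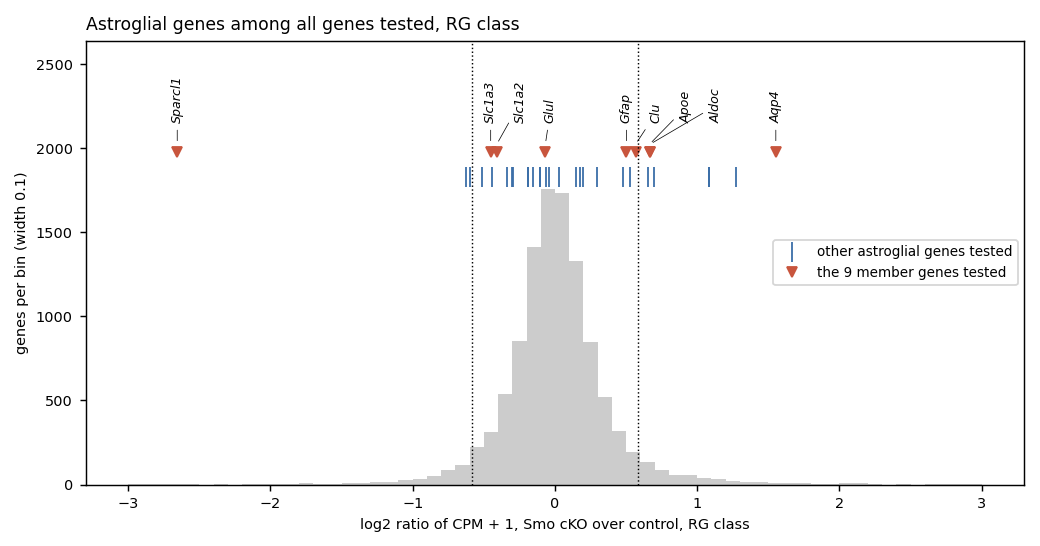
Number of genes (y axis) by log2 ratio of CPM + 1 in RG cells, Smo cKO over control (x axis, limited to -3 to 3), for all 10995 genes tested (grey), with the 9 astroglial genes as labeled red triangles and 26 further astroglial genes as blue ticks. Dotted lines mark 1.5-fold. *Sparcl1* stood alone on the left of the list and *Aqp4* on the right.

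The difference in *Sparcl1* was one in the number of cells with the transcript. With every cell at 2900 UMIs, 308 of 1542 control RG cells (20.0%, 18.0 to 22.1%) and 29 of 1255 Smo cKO RG cells (2.31%, 1.55 to 3.30%) had a *Sparcl1* UMI. The cells that had it carried 1.88 UMIs on average in control and 2.62 in Smo cKO. The endothelial genes *Cldn5* and *Pecam1* were higher in cells with a *Sparcl1* UMI, at 12.3 against 1.12 CPM in control and at 476 against 2.25 CPM in Smo cKO. Without thinning, 2 of the 43 Smo cKO RG cells with *Sparcl1* had a *Cldn5* or *Pecam1* UMI and held 19.6% of the *Sparcl1* UMIs, while in control 6 of 477 such cells held 7.42%. When every cell with a UMI of any of the 10 vascular markers was left out, an alternative chosen after seeing the data, *Sparcl1* was at 100 CPM in 1396 control RG cells and at 3.89 CPM in 958 Smo cKO RG cells, a ratio of 0.0387 (0.0249 to 0.0577). The share of these cells with a UMI was 23.4% in control and 1.04% in Smo cKO, and the Smo cKO shares in other classes were 2.34% in PyNs, 0.660% in IPCs and 0.680% in microglia. The median depth of these classes was 4128, 4896.5 and 8351 UMIs, and that of Smo cKO RG cells as a whole 6804 UMIs.

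*Aqp4* and *Apoe* also differed in how many cells had them. The share of RG cells with an *Apoe* UMI at 2900 UMIs was 78.1% in control (76.0 to 80.2%) and 87.3% in Smo cKO (85.4 to 89.1%), with 5.01 and 7.10 UMIs per cell that had it. *Apoe* was higher in Smo cKO in microglia too (1.81-fold, 1.75 to 1.88), where 13.2% of 5215 genes were at least 1.5-fold higher and 11.8% lower, and in PyNs (1.78-fold, 1.42 to 2.25), at 28.2 and 50.2 CPM. The microglia were 84 control and 147 Smo cKO cells (0.800% and 2.04% of cells), of which 3 and 30 lay at the limit of the class. In the same microglia 4 of 7 stress genes tested were higher (*Fos*, *Junb*, *Hspa1a* and *Dusp1*) and 1 was lower (*Egr1*), and their part in the *Apoe* difference there was not tested. Of the 3 genes with enough UMIs in microglia, *Slc1a3* was lower (ratio 0.487, 0.289 to 0.816). In RG cells with no UMI of any microglial marker (1713 and 1295 cells), the *Apoe* ratio was 1.55 (1.52 to 1.59). For *Aldoc*, 78.3% of control and 87.4% of Smo cKO RG cells had a UMI at 2900 UMIs, with 4.02 and 5.73 UMIs per cell that had it.

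In cycling RG cells 5 of 9 genes were at least 1.5-fold higher in Smo cKO (background 4.26% of 10692 genes) and *Sparcl1* alone was lower (4.59%). *Gfap* (1.65-fold, 1.44 to 1.89) and *Clu* (1.89-fold, 1.80 to 2.00) joined *Aqp4* (3.16-fold, 2.51 to 3.99), *Aldoc* (1.87-fold, 1.81 to 1.94) and *Apoe* (1.78-fold, 1.73 to 1.83). *Sparcl1* had a ratio of 0.154 (0.123 to 0.190), close to that in RG cells. In IPCs the same 5 genes were higher (background 4.87%) and *Sparcl1* lower (4.95%), at low levels: *Aldoc* had 100 UMIs in 1371 control cells and 131 in 606 Smo cKO cells, and *Gfap* 58 and 63. *Slc1a3*, lower in Smo cKO RG cells, had a ratio of 1.21 (1.03 to 1.42) in IPCs. In PyNs 2 of 7 genes were higher (background 2.98%), *Aldoc* and *Apoe*, and *Sparcl1* was lower (1.95%) at a ratio of 0.370 (0.229 to 0.586).

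In glial progenitors none of 8 genes with enough UMIs was at least 1.5-fold higher (background 3.89% of 7355 genes), and 2 were lower (8.88%), *Sparcl1* (ratio 0.316, 0.205 to 0.471) and *Slc1a2* (ratio 0.475, 0.320 to 0.687). *Apoe* had a ratio of 0.935 (0.805 to 1.08) and *Clu* of 1.01 (0.673 to 1.49). The class held 102 Smo cKO cells, and whether the genotype ratio differs between classes was not tested.

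**Figure D3:**
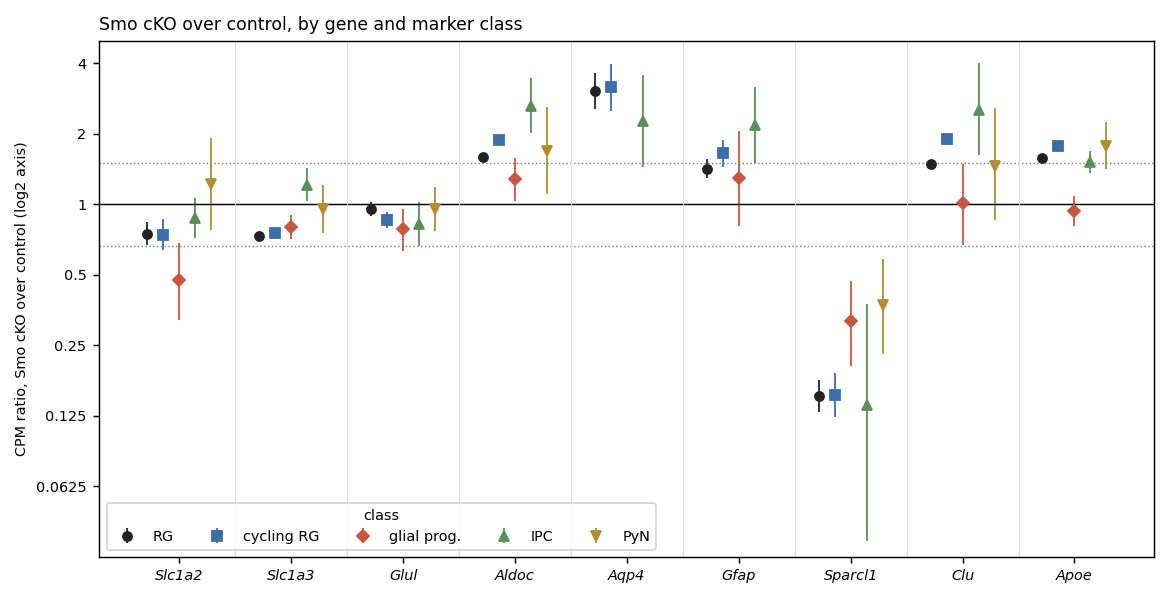
Ratio of CPM, Smo cKO over control (y axis, log2 axis), for the 9 genes with enough UMIs (x axis) in 5 marker classes (symbols), with exact 95% intervals for counting error. The solid line marks equal levels and dotted lines 1.5-fold. *Sparcl1* lay below the lower dotted line in all 5 classes shown, and *Aqp4* above the upper one in the 3 classes where it had enough UMIs.

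A list of 30 further astroglial genes gives the setting. The mouse table held 28 of them, and 26 had at least 50 UMIs in RG cells. In Smo cKO 5 of the 26 were at least 1.5-fold higher (5.18% of all genes) and 2 lower (3.93%), and their median log2 ratio was -0.05. The higher genes were *Bcan*, the gene of the matrix proteoglycan brevican (107 CPM in control and 260 CPM in Smo cKO), *Pla2g7* (23.1 CPM in control, 2.17-fold higher), the gene of the secreted protease *Htra1* (116 and 247 CPM), the amino acid transporter gene *Slc7a10* (13.0 and 21.7 CPM) and *Atp1b2*, which encodes a subunit of the astrocytic sodium pump (74.9 and 118 CPM). The lower genes were the bicarbonate transporter gene *Slc4a4* (80.9 and 53.2 CPM) and *Tril* (3.56 and 1.96 CPM, from 31 and 19 UMIs). The ratio of *Tril* was 0.551 (0.294 to 1.007), an interval that holds 1. They were followed inside the limit by the GABA transporter gene *Slc6a11* (28.3 and 19.5 CPM). The gap junction gene *Gja1* (33.8 and 31.4 CPM), the potassium channel gene *Kcnj10* (64.6 and 52.5 CPM) and *Aldh1l1* (146 and 128 CPM), whose enzyme is a broad astrocyte marker, did not pass the limit, and are named here after their values were seen. In cycling RG cells 6 of 24 listed genes were higher (4.26% of all genes) and none lower (4.59%), and in glial progenitors none of 22 was higher (3.89%) and 6 were lower (8.88%). Of the 6 stress genes tested in RG cells, none was higher and 2 were lower, *Egr1* (123 and 59.4 CPM) and *Ier2* (83.2 and 54.0 CPM). In glial progenitors the stress gene *Junb* was higher (ratio 1.73).

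Within each library the genes were also compared between cycling and other RG cells. Cycling RG cells were deeper, with a median of 5930 against 4548.5 UMIs in control and 8856 against 6804 in Smo cKO. The ratios below are of CPM, so they compare parts of a cell's UMIs. As sequenced, an *Slc1a3* UMI was seen in 89.0% of cycling and 84.5% of other RG cells in control, and in 83.0% and 83.9% in Smo cKO. In control all 9 genes with enough UMIs had ratios below 1 in cycling RG cells, as did 57.4% of all genes, with values from 0.471 (*Gfap*, 0.418 to 0.531) to 0.866 (*Slc1a3*, 0.834 to 0.898, and *Glul*, 0.810 to 0.926). In Smo cKO the ratios ran from 0.547 (*Gfap*, 0.491 to 0.608) to 0.898 (*Slc1a3*, 0.857 to 0.941), again all 9 below 1, where 60.5% of all genes were. *Aldoc* was nearest to *Gfap*, at 0.511 in control and 0.602 in Smo cKO. In both libraries *Gfap* had the lowest ratio of the 9. At least 1.5-fold lower were 5 of the 9 in control (*Gfap*, *Aldoc*, *Aqp4*, *Apoe* and *Clu*), against 6.47% of all genes, and 3 in Smo cKO (*Gfap*, *Aldoc* and *Aqp4*), against 8.77%. None of the 9 was at least 1.5-fold higher, where 7.16% and 7.22% of all genes were.

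How many of the 10 genes a single RG cell showed was counted at 2900 UMIs. Control RG cells had a mean of 3.89 and Smo cKO RG cells a mean of 4.02, with a median of 4 in both. At least 5 of the genes were seen in 40.4% (37.9 to 42.9%) of the 1542 control cells used, and the Smo cKO share was 37.8% (35.1 to 40.5%) of 1255, which is not a difference beyond counting error. As sequenced the shares were 56.7% and 67.6%, following the deeper Smo cKO cells. In cycling RG cells the shares at 2900 UMIs were 24.9% and 25.6%, in glial progenitors 4.16% and 1.96%, and in PyNs 0 of 725 and 0 of 1001 cells, with upper limits of 0.508% and 0.368%.

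RG cells were then split by each gene in turn, at 2900 UMIs. Cells with an *Aldoc* UMI had more of each of the other 8 genes than cells without one in both libraries, from 1.84-fold (*Slc1a2*) to 6.31-fold (*Aqp4*) in control and from 1.77-fold (*Gfap*) to 4.34-fold (*Aqp4*) in Smo cKO, where the interval for *Sparcl1* (0.836 to 6.49) held 1. In this split all 7 of the genes with at least 100 UMIs were at least 1.5-fold higher in each library, against 12.5% of all genes in control and 12.8% in Smo cKO, while 5.18% and 9.57% of all genes were lower. Cells with *Aqp4* had 2.86-fold more *Slc1a2* UMIs in control and 2.02-fold more in Smo cKO. *Gfap* and *Sparcl1* each had fewer UMIs per cell beside the other in both libraries, though the interval for *Gfap* in Smo cKO cells split by *Sparcl1* (0.168 to 1.22) held 1. *Sparcl1* had ratios of 0.890 (0.754 to 1.05) and 0.471 (0.293 to 0.759) in cells with *Clu*, while the share of cells with *Sparcl1* was 20.5% with *Clu* and 19.3% without in control and 2.34% and 2.24% in Smo cKO. Control cells with a *Gfap* UMI had 93.0 CPM of *Sparcl1* against 137 CPM in cells without (ratio 0.679, 0.523 to 0.871). In Smo cKO the values were 4.91 and 25.5 CPM (ratio 0.193, 0.0511 to 0.515), from under 100 *Sparcl1* UMIs. There 1.42% of the 281 cells with *Gfap* and 2.57% of the 974 without had a *Sparcl1* UMI. These are descriptions over cells of 1 library each, and cells are not replicates.

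**Figure D4:**
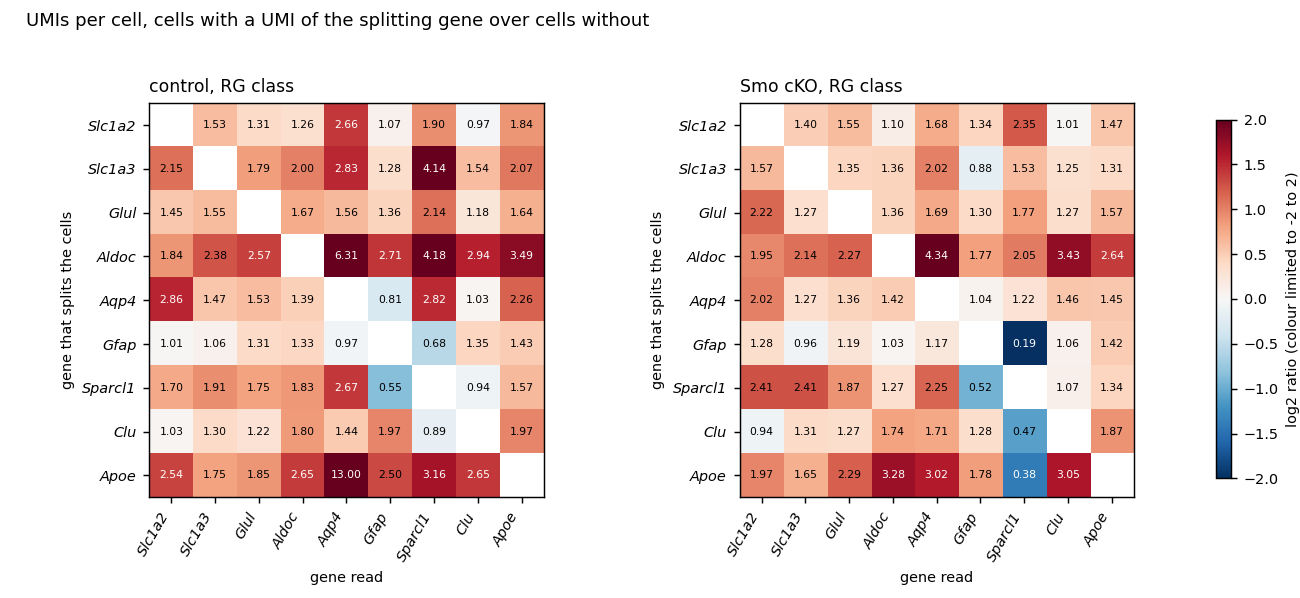
UMIs per cell of the gene on the x axis, in RG cells with a UMI of the gene on the y axis over RG cells without one, at 2900 UMIs per cell, for control (left) and Smo cKO (right). Red marks a ratio above 1 and blue one below 1, and the number is the ratio. The field for *Gfap* and *Sparcl1* is blue in both libraries and that for *Aldoc* and *Aqp4* red.

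The split by *Gfap* was read over all genes. The 267 control RG cells with a *Gfap* UMI (median 4723 UMIs) had more *Aldoc* (1.33-fold), *Clu* (1.35-fold), *Apoe* (1.43-fold) and *Glul* (1.31-fold) than the 1275 without (median 4817 UMIs), and *Slc1a3* (ratio 1.06, 0.961 to 1.16) and *Slc1a2* (ratio 1.01, 0.753 to 1.34) did not differ beyond counting error. In Smo cKO (281 cells with and 974 without) *Apoe* kept a ratio of 1.42 (1.35 to 1.49) while *Aldoc* had 1.03 (0.966 to 1.09). Of all genes tested in this split, 2.01% were at least 1.5-fold higher and 3.66% lower in control, and 1.03% and 2.94% in Smo cKO. Over both libraries the 10 genes with the highest ratio, of 7441 with at least 100 UMIs, were *Hmox1*, *Hbb-bs*, *Cav1*, *Tagln*, *H19*, *Tnfrsf12a*, *Psmb8*, *Fn1*, *Cyb5r3* and *C4b*. *Hbb-bs*, a hemoglobin gene of red blood cells, was 2.69-fold higher in control and 19.5-fold in Smo cKO. In RG cells as a whole it was at 847 CPM in control and 253 CPM in Smo cKO, and the part of red blood cell RNA in these splits was not tested. The heme oxygenase gene *Hmox1* was 13.1-fold and 1.13-fold higher, and the smooth muscle gene *Tagln* 2.73-fold and 2.95-fold.

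The split by *Sparcl1* was added after its values had been seen, and in control 6.15% of genes were at least 1.5-fold higher and 3.59% lower in cells with its UMI. In control the genes most above in cells with a *Sparcl1* UMI were *Luzp2* (79.1 CPM without and 356 CPM with), *Slc6a11* (17.6 and 76.1 CPM), *Pla2g7* (15.9 and 57.1 CPM) and *St6galnac5* (15.9 and 54.9 CPM). The pericyte gene *Pdgfrb*, one of the vascular markers, was also among the first 10 (22.9 and 68.3 CPM). Vascular markers summed to 165 CPM in these cells against 34.7 CPM in the others, RG markers to 33691 against 19679 CPM, and IPC markers to 261 against 755 CPM. The part of vascular RNA in this split was not tested. Hemoglobin genes were lower in them, *Hbb-bs* at 36.9 against 874 CPM. In RG cells as a whole *Luzp2* was at 133 CPM in control and 132 CPM in Smo cKO, and *Slc6a11* at 28.3 and 19.5 CPM.

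The genes crossed with *1500015O10Rik*, now named *Ecrg4*, a gene high in part of the RG cells. *Gfap* was higher in RG cells with its UMI than in those without (137 against 50.4 CPM in control, 159 against 84.4 CPM in Smo cKO). *Sparcl1* was lower (63.2 against 190 CPM in control, 1.60 CPM from 9 UMIs against 45.5 CPM in Smo cKO). *Clu* was also higher in cells with an *Ecrg4* UMI (457 against 360 CPM, 649 against 530 CPM). *Aldoc* (906 against 1163 CPM, 1543 against 1822 CPM), *Slc1a3*, *Slc1a2* and *Glul* were lower in both libraries. *Aqp4* was at 47.9 against 67.7 CPM in Smo cKO and nearly equal in control (18.0 against 18.9 CPM, from 72 and 89 UMIs). *Apoe* was at 1224 against 1397 CPM in control and nearly equal in Smo cKO (2077 against 2106 CPM). No intervals and no share of all genes are given for this split.

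For each gene the 3 genes with the most similar pattern over the 14 mouse profiles (7 classes in 2 libraries) were found by Pearson's r of log2(CPM + 1) among 8910 genes. These profiles share libraries and depth, so r only describes them. *Clu* was closest to *Timp3* (r = 0.990), *Mt3* and *Fabp7*, *Aldoc* to *Pawr* (0.988), *Cfap100* and *Daam2*, *Gfap* to *Atf5* (0.985), *Dgkb* and *Kcne1l*, and *Apoe* to *Asah1* (0.985), *Tmbim6* and *Gm26532*. *Slc1a3* was close to *Emc8* (0.974) and *Creb5*, *Slc1a2* to *Tox3* (0.962), *Magi1* and *Lima1*, *Aqp4* to *Adamts18* (0.962), *Dmrta2os* and *Gabrb1*, and *Glul* to *Jun* (0.960), *Pxdc1* and *Actn1*. *Sparcl1* had the lowest first match of the 10, *Shroom3* (0.893), *Pkn2* and *Plpp3*. The match of *S100b* rests on 34 UMIs, with *Wdr5* first (0.936), followed by *Bysl* and *Olig2*.

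The E39 ferret cortex gave 10185 cells with 30548876 UMIs in barcode set 1 and 13052 cells with 56090792 UMIs in set 2, with 38 barcode sequences in both. The RG class held 224 cells in set 1 and 354 in set 2, with 293 and 366 cycling RG cells and 7075 and 8512 PyNs. In each set 79 RG cells lay at the limit of the class. Of the 9 genes, 5 (*ALDOC*, *AQP4*, *SLC1A3*, *APOE* and *GLUL*) had their highest CPM in RG cells in both sets among the 5 classes with at least 50 cells, where 8.47% of 14903 genes did. Microglia, glial progenitors and inhibitory cells, each under 50 cells in 1 set, were not among these classes. In the 62 and 42 ferret microglia *APOE* was at 4130 and 1748 CPM, against 42.8 CPM (28.2 to 62.3) and 46.1 CPM (35.2 to 59.3) in RG cells. PyNs had 2.08 and 0.683 CPM of *APOE*.

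The ferret glutamate transporter genes were spread unlike each other. *SLC1A3* was at 858 CPM (787 to 933) and 1087 CPM (1031 to 1145) in RG cells, ahead of cycling RG cells (625 and 726 CPM), glial progenitors (211 and 329 CPM) and PyNs (7.39 and 3.97 CPM). *SLC1A2* was at 19.0 and 27.6 CPM in RG cells and higher in PyNs, at 52.8 CPM (49.8 to 56.0) and 89.0 CPM (86.0 to 91.9). Among the few inhibitory cells (15 and 329) it was at 258 CPM (111 to 507) and 237 CPM (207 to 269). *SLC1A2* was detected in 30.5% of the PyNs of set 2 and in 7.63% of its RG cells. In mouse the order of these classes was the reverse, with RG cells above PyNs in both libraries. Ages and species differ between these libraries, so the 2 orders are given side by side without a test.

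*GLUL* was at 143 and 312 CPM in ferret RG cells and at 35.1 and 63.2 CPM in PyNs, and microglia had 157 and 281 CPM. The sets differed beyond counting error in RG cells (115 to 175 and 282 to 344). *ALDOC* was at 187 CPM (155 to 224) and 233 CPM (207 to 260) in RG cells and at 115 and 92.8 CPM in cycling RG cells. *AQP4* had 14 and 49 UMIs in RG cells, 22.2 and 37.6 CPM. *S100B*, nearly absent from mouse RG cells, was found in 9.38% (5.90 to 14.0%) and 13.8% (10.4 to 17.9%) of ferret RG cells, against 0.339% and 0.905% of PyNs, at 36.5 and 43.8 CPM. *CLU* was at 82.5 and 121 CPM in RG cells and at 94.2 and 69.6 CPM in cycling RG cells, and these intervals overlapped in set 1 only. Against other RG cells, 2 of 6 genes with enough UMIs in set 1 and 4 of 9 in set 2 were at least 1.5-fold lower in cycling RG cells, where 6.59% and 8.32% of all genes were, and none was higher, where 10.2% and 8.97% were. *ALDOC* (ratios 0.614 and 0.399) and *APOE* (0.524 and 0.526) were lower in both sets, and *SLC1A3* had 0.729 and 0.668. The ratios lay on different sides of 1 for *SPARCL1* (1.05 and 0.609), *CLU* (1.14 and 0.574) and *S100B* (0.492 and 1.26, the first from under 50 UMIs), each with an interval that held 1 where the ratio was above it. *GLUL* had 0.886 and 0.708. *SPARCL1* was at 274 CPM (235 to 318) and 345 CPM (314 to 378) in RG cells, and at 441 and 471 CPM in the 42 and 117 glial progenitors. Vascular cells were highest, with 2118 and 2113 CPM.

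**Figure D5:**
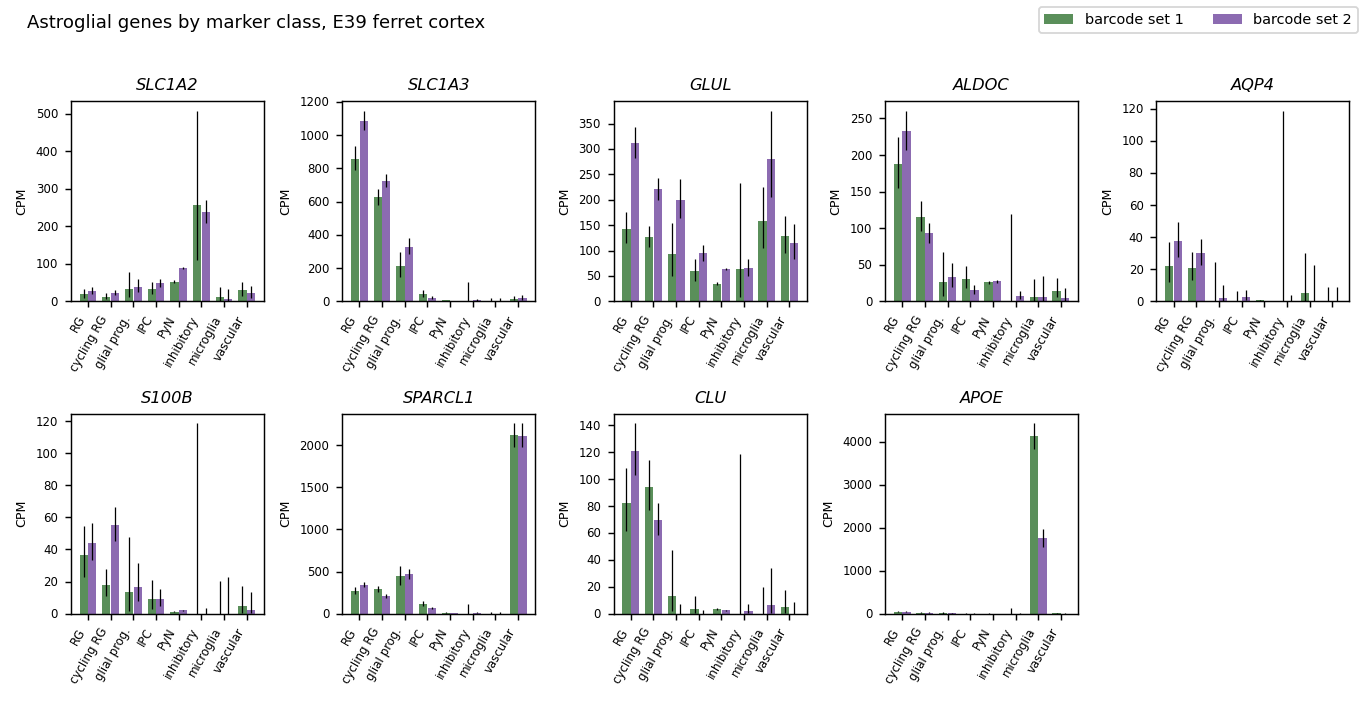
CPM (y axis, a scale of its own for each gene) of the 9 genes in each marker class of the E39 ferret cortex (x axis), barcode set 1 in green and set 2 in purple. Bars are CPM of summed UMIs and error bars exact Poisson 95% intervals. *SLC1A3* stood at 858 and 1087 CPM in RG cells, and *SLC1A2* was higher in inhibitory cells and PyNs than in RG cells in both sets.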

How the data were processed

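The authors made the deposited tables, raw UMI counts per gene and cell, with Cell Ranger (version and annotation not given in the sources used here), and the submitters' notes name mm10 for mouse and StringTie and Seurat 3. The ferret genome is not given in the sources used here. No cell annotation was used. Cells with 750 to 5000 genes and under 10% mitochondrial transcripts were kept. A cell joined the class with the most markers detected, at least 3 and a lead of at least 2, except that 3 glial progenitor markers sufficed where RG or glial progenitor markers led. No doublet caller was run, and 443 control and 330 Smo cKO RG cells held at least 3 markers of 2 classes. UMIs were summed per class and library and given as CPM with exact Poisson intervals, ratios with exact conditional binomial intervals, and shares with Clopper-Pearson intervals. Ratios between libraries needed at least 50 UMIs. The code was in Python 3.11.15 with scipy 1.17.1. Its ratio between genotypes in RG cells was tested on simulated counts, and the outcome is not given here. The 10 genes, marker lists and comparisons were chosen with earlier results of these data known. Named were all 10 genes, for each the 3 genes most like it among those with at least 500 UMIs, the 10 genes highest in RG cells with a *Gfap* UMI, and, of the other astroglial genes, those past 1.5-fold and the 3 largest either way. Coordinates are from GENCODE on GRCm38. No sequence was printed. A gene that these rules would name for *Slc1a3* is not reported here.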

Additional observations from a re-analysis of the deposited data

Results flagged for a closer look

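*Slc1a3* differed in direction between 2 classes of the same libraries: its ratio of Smo cKO over control was 0.731 in RG cells and 1.21 in IPCs. The difference between the classes was not tested. Of the IPCs, 842 of 1371 in control and 405 of 606 in Smo cKO lay at the limit of their class.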

How the results depend on the processing

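No paired analysis was possible because each genotype had 1 library and the ferret cells came from 1 embryo of another species. Over 17 alternatives that can move the ratio of a single gene, 127 of 153 ratios of single genes in RG cells moved by less than the counting interval, 26 moved by more, and none that was past the limit changed sign. The log2 ratio ran from -4.37 (cells without a vascular marker UMI) to -2.04 (cells without an *Ecrg4* UMI) for *Sparcl1*, from 0.37 to 0.73 for *Gfap*, and from -0.17 to 0.05 for *Glul*, which changed sign with classes set on thinned cells and with cells thinned to 2900 UMIs (0.02). These subsets of cells, and leaving out shared barcodes, were chosen after seeing the data. The count of genes at least 1.5-fold higher in Smo cKO was 5 with cycling RG cells included, and 4 without cells with an *Ecrg4* UMI or with a vascular marker UMI, where *Gfap* passed the limit. A fold limit below 1.5 gave 5 higher and 3 lower genes, and one of 2-fold gave 1 higher and 1 lower. More of all genes also pass a lower limit. The shares of all genes under these limits and subsets of cells are not given here, so these counts have no background to be read against. The median log2 ratio was 0.37 with classes set on thinned cells, 0.68 with cycling RG cells included and 0.30 without the filter on UMIs, which adds *S100b*. Of the other astroglial genes, 1 was lower under the stricter and the looser class rule and with cycling RG cells included. In ferret, 3 genes were highest in RG cells under the looser class rule. The share of RG cells with at least 5 of the genes was, in control and Smo cKO, 56.7% and 67.6% as sequenced, 25.7% and 25.8% at 2000 UMIs, 44.7% and 41.2% under the stricter rule, 34.7% and 32.5% under the looser rule, and 33.0% and 33.5% with cycling RG cells included. The causes were not tested. With 1 library per genotype, no interval covers the spread between embryos.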
